A study of Homo sapiens with 8 samples.

Results

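The nuclear pore and the nuclear transport factors were examined as a set of 51 genes among the 57820 genes in the count tables. Members were taken by symbol: the nucleoporins whose symbol is NUP with a number, the importins alpha and beta (KPNA, KPNB), the importins and transportins (IPO, TNPO), the exportins (XPO), and CSE1L, RAN, RANBP1, RANGAP1, RCC1, TPR and NXF1. The rule used symbols alone. The cells were A549, an established human lung adenocarcinoma line, and every library was made from poly(A)-selected RNA. In one experiment A549 cells carried an empty vector (Empty) or an MGA overexpression vector (MGA). In the other, A549 cells received a negative control siRNA (siNC) or an siRNA that silences MYC (siMYC). The 4 groups held 2 libraries apiece, A and B, and the experiments shared no library. The labels give no promoter, clone, dose or time for either manipulation, and nothing says that A and B came from separate cultures, so the p-values below measure the spread between these libraries, which may be technical.

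Nuclear pores are the channels through the nuclear envelope. Stacked rings of scaffold nucleoporins, an outer Y-shaped complex and an inner ring, hold a central channel of disordered nucleoporins through which large cargo passes only when bound to a transport receptor. Importin alpha recognises the classical nuclear localisation signal and bridges cargo to importin beta, other importins and transportins bind cargo directly, and exportins carry cargo out. Direction comes from the small GTPase RAN, which RCC1 loads with GTP on chromatin and RANGAP1 and RANBP1 help to hydrolyse GTP in the cytoplasm. MYC is a transcription factor that binds DNA with its partner MAX at the E-box CACGTG, and MGA is a MAX partner that also holds a T-box domain. The comparisons ask how transcripts of the transport machinery respond to MGA and to loss of MYC.

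Total expected counts were 844477 and 820428 with Empty, 1176890 and 917548 with MGA, 1398805 and 1741730 with siNC and 2129006 and 1598792 with siMYC. Every Empty and MGA library thus held fewer counts than every siNC and siMYC library, which limits what can be called with MGA. How far this accounts for the number of calls with MGA was not tested. MGA transcripts stood at 122 and 81.5 CPM (the normalised read count, scaled to library size by TMM size factors) in the Empty libraries and at 102455 and 103732 CPM in the MGA libraries, where they took 9.54% and 9.68% of all counts. MYC transcripts stood at 219 and 183 CPM with siNC and at 48.3 and 41.1 CPM with siMYC (log2 fold change -2.15, SE 0.14), so both manipulated genes moved as labelled. In the other experiment MYC transcripts were also called higher with MGA, from 234 and 241 CPM with Empty to 296 and 347 CPM. The log2 fold change was 0.43 (SE 0.12, edgeR adjusted p = 0.025). It ran from 0.30 to 0.55 over 15 alternative fits, and 7 of them lost the call. All 8 of the A549 epithelial markers examined were above 0 in every library, and 5 of 7 markers of blood, endothelial, stromal and liver cells were at 0 in every library, with ALB and COL3A1 giving the remaining signal of at most 1.76 TPM in sum. Members made up 0.971% and 0.948% of counts with siNC, 0.627% and 0.631% with siMYC, 0.767% and 0.762% with Empty and 0.652% and 0.665% with MGA. Without the MGA gene in the total, the MGA shares were 0.720% and 0.736%. In bulk RNA, fewer cells that express a gene and less RNA per cell cannot be told apart.

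Of the 51 members, 49 had enough counts to be tested. NUP210L, a paralog of the pore membrane protein NUP210, had 0 counts in every library, and KPNA7, an importin alpha, had at most 2 counts in any library. Compared per length in TPM (the authors' deposited values, corrected for transcript length), RAN was the most abundant member in all 4 groups, at 871 ± 6.79 TPM with Empty, 672 ± 42.1 with MGA, 1304 ± 24.2 with siNC and 705 ± 79.7 with siMYC (mean ± SD, n = 2). KPNA2, an importin alpha, and KPNB1, importin beta itself, came next in every group. Their levels lay within each other's spread with siNC (530.8 ± 15.2 and 525 ± 60.1 TPM) and with siMYC (378 ± 23.0 and 366 ± 21.9 TPM). With Empty, KPNB1 stood at 343 ± 32.0 and KPNA2 at 296 ± 17.1 TPM. RANBP1 followed with siNC, siMYC and Empty, while with MGA TNPO1, XPO6 and RANBP1 had overlapping levels of 166 ± 24.2, 150.2 ± 28.0 and 148 ± 3.40 TPM. At the low end, XPO4, IPO13 and KPNA5 were the least abundant tested members in every group, at 2.72 to 14.9 TPM on average.

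Transcripts of most members were lower with siMYC than with siNC. Of 49 members tested, 36 fell with siMYC and 0 rose, and 13 did not pass the test (edgeR quasi-likelihood test, adjusted p under 0.05 over all 11218 genes tested). Among all genes tested, 20.0% fell and 19.0% rose. The log2 fold change was negative for 47 of the 49 members, with a median of -0.62 against 0.01 over all genes. Libraries of the siNC and siMYC groups did not overlap for any of the 36 members that fell. Over all genes tested, both siMYC libraries lay below both siNC libraries for 33.6%, and among all genes called lower for 99.5%. Of the members, 9 fell by 1 or more on the log2 scale: CSE1L, IPO4, NUP160, NUP188, NUP88, RANBP1, RCC1, XPO5 and XPOT. At an unadjusted p under 0.05 the number that rose was also 0, as it was with DESeq2 and with limma. On TPM with limma 14 of the 36 falls passed, a scale on which the median of all genes stood at 0.14. On that scale 4.78% of all genes were called lower.

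**Figure D1:**
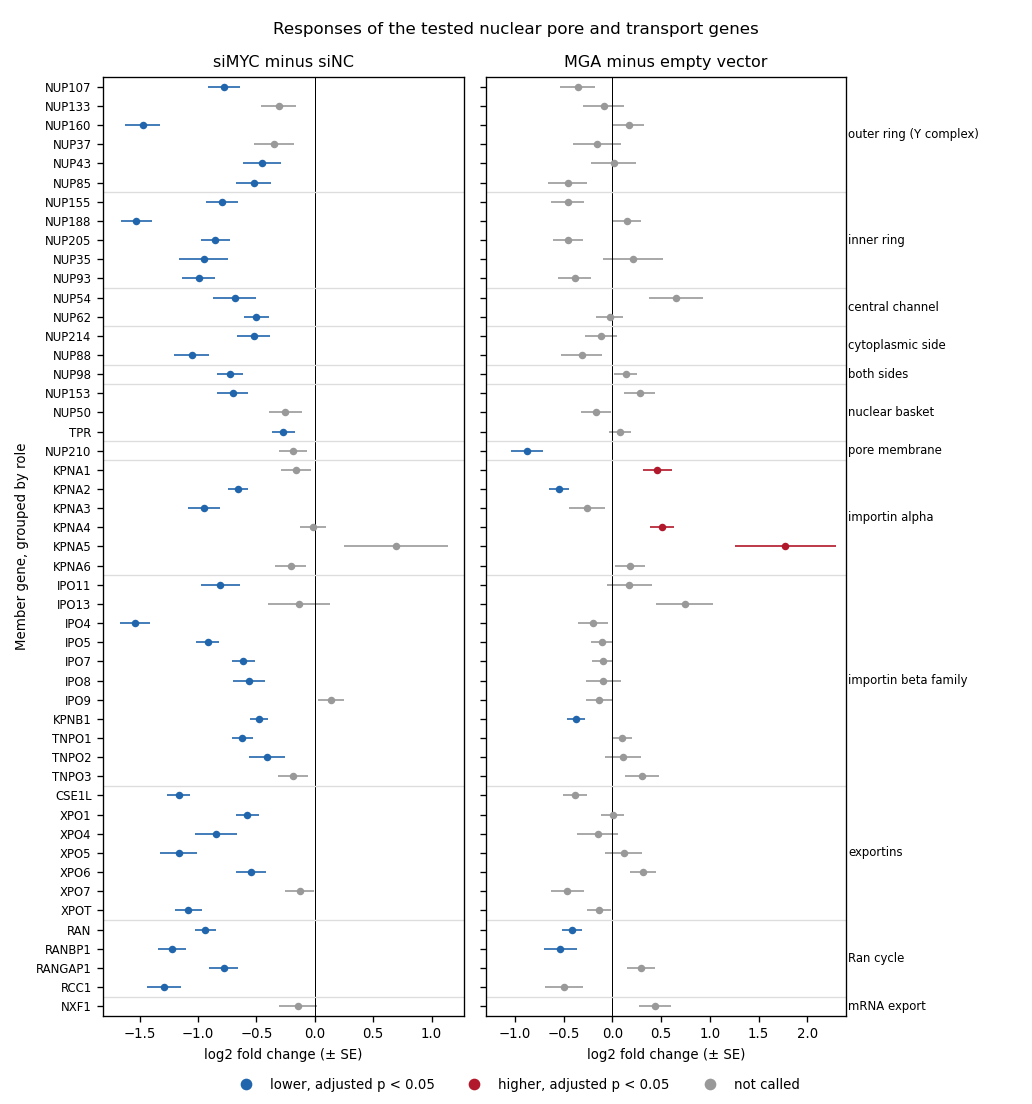
Log2 fold changes (horizontal axes, points with SE bars) of the 49 tested members, grouped by role, for MGA against Empty and siMYC against siNC, with colour for members that were higher, lower or not called at an adjusted p under 0.05. Most points lie left of 0 with siMYC (36 called lower, 0 higher), while with MGA 5 were called lower and 3 higher.

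The 4 genes of the RAN cycle all fell with siMYC, with a median log2 fold change of -1.08. RAN, the GTPase, stood at 777 and 862 CPM with siNC and at 393 and 466 CPM with siMYC, a log2 fold change (± SE) of -0.94 ± 0.09 (adjusted p = 4.6e-09). RCC1, its nucleotide exchange factor, stood at 134 and 148 CPM with siNC and 59.7 and 55.2 CPM with siMYC, a log2 fold change (± SE) of -1.29 ± 0.14 (adjusted p = 4e-08). RANBP1, which assists GTP hydrolysis, went from 164 and 183 to 73.1 and 76.1 CPM, a log2 fold change (± SE) of -1.22 ± 0.12 (adjusted p = 7.1e-09). For all of these, both siMYC libraries lay below both siNC libraries. RANGAP1, the GTPase activator, fell by 0.78 on the log2 scale. Exons of RANBP1 overlap those of TRMT2A and exons of RCC1 overlap the noncoding host gene SNHG3 in the GENCODE annotation, and the strand setting of the counting is not stated, so their values may hold reads of these neighbours. The same holds for IPO4 (REC8), XPO5 (POLR1C), NUP188 (SH3GLB2), NUP43 (PCMT1), TPR (PRG4) and IPO11 (KIF2A, LRRC70).

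Among the importin beta family, 8 of 11 members fell, with a median log2 fold change of -0.56. IPO4, which carries histones, had the most negative log2 fold change of any member, from 170.0 and 167 CPM with siNC to 57.0 and 58.9 CPM with siMYC, a log2 fold change (± SE) of -1.54 ± 0.13 (adjusted p = 4.7e-10). IPO5, an importer of ribosomal proteins, went from 311 and 315 to 158 and 176 CPM, a log2 fold change (± SE) of -0.92 ± 0.10 (adjusted p = 3e-08). TNPO1, the transportin that carries hnRNP proteins, went from 629 and 581 to 387 and 400.1 CPM, a log2 fold change (± SE) of -0.62 ± 0.09 (adjusted p = 1.9e-06). All siMYC libraries of these genes lay below all siNC libraries. KPNB1, the partner of importin alpha, went from 869 and 923 to 619 and 671 CPM, a log2 fold change (± SE) of -0.48 ± 0.08 (adjusted p = 2.7e-05). IPO7 and IPO8, a paralog pair, fell by 0.61 and 0.56 on the log2 scale, and IPO11 by 0.81. TNPO2, the paralog of TNPO1, was called at a log2 fold change of -0.41. That call was lost in 10 of 15 alternative fits, among them RLE, upper-quartile and unscaled library sizes, DESeq2 and limma on TPM. They include the fits without siNC replicate B (-0.22) and without siMYC replicate A (-0.34). IPO9 (log2 fold change 0.14, adjusted p = 0.34), IPO13 and TNPO3 did not pass.

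Of the exportins, 6 of 7 fell with siMYC, with a median log2 fold change of -0.84. CSE1L, which returns importin alpha to the cytoplasm, had the smallest p of all members, with 411 and 388 CPM with siNC and 168 and 190.2 CPM with siMYC, a log2 fold change (± SE) of -1.16 ± 0.10 (adjusted p = 4.3e-10). XPOT, the exporter of transfer RNA, went from 249 and 226 to 115 and 107 CPM, a log2 fold change (± SE) of -1.08 ± 0.11 (adjusted p = 2e-08). XPO5, the exporter of microRNA precursors, went from 103 and 107 to 53.3 and 38.7 CPM, a log2 fold change (± SE) of -1.16 ± 0.16 (adjusted p = 1.1e-06). Groups did not overlap for any of these, and replicate B of XPO5 was the lower of its siMYC libraries. XPO1, the main exporter of proteins with a leucine-rich export signal, fell by 0.58 on the log2 scale, XPO6, the exporter of actin, by 0.54 and XPO4 by 0.84. XPO7 stood at 134 and 134 CPM with siNC and 116 and 129 CPM with siMYC and did not pass (log2 fold change -0.13, adjusted p = 0.44).

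The importin alpha family split. KPNA2 went from 749 and 737 CPM with siNC to 484 and 457 CPM with siMYC, a log2 fold change (± SE) of -0.66 ± 0.08 (adjusted p = 3.3e-07). KPNA3 went from 130.0 and 136 to 67.6 and 71.2 CPM, a log2 fold change (± SE) of -0.95 ± 0.14 (adjusted p = 3.6e-06). These 2 were the only members of the family called, of 6 tested. KPNA4, the closest paralog of KPNA3, stood at 195 and 164 CPM with siNC and 180.2 and 173 CPM with siMYC, with overlapping libraries and a log2 fold change of -0.02 (95% interval -0.25 to 0.21), whose sign turned under other scalings. KPNA1 (-0.16), KPNA6 (-0.21) and the scarce KPNA5 (0.69, SE 0.45) also did not pass.

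Pore scaffold genes fell with siMYC in both rings. In the inner ring 5 of 5 members fell, with a median log2 fold change of -0.95. NUP188 went from 144 and 146 CPM with siNC to 50.1 and 50.3 CPM with siMYC, a log2 fold change (± SE) of -1.53 ± 0.13 (adjusted p = 6.2e-10). Its paralog NUP205 fell by 0.85 on the log2 scale, and NUP35, NUP93 and NUP155 fell by 0.95, 0.99 and 0.79. In the outer ring 4 of 6 members fell, with a median of -0.49. NUP160 went from 121 and 125 to 45.5 and 43.0 CPM, a log2 fold change (± SE) of -1.47 ± 0.15 (adjusted p = 9.1e-09), while NUP107, NUP85 and NUP43 fell by 0.78, 0.52 and 0.45 and NUP37 (-0.35) and NUP133 (-0.31) did not pass. Within the Y complex called and uncalled subunits stood side by side. The NUP43 call was lost in 9 of 15 alternative fits, among them RLE, upper-quartile and unscaled library sizes, DESeq2 and limma on TPM. They include the fits without siNC replicate A (-0.35) and without siMYC replicate A (-0.40).

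The nucleoporins that line the channel and its faces also fell. NUP98, which reaches both faces and whose precursor also yields an outer ring protein, went from 196 and 204 CPM with siNC to 131 and 109 CPM with siMYC, a log2 fold change (± SE) of -0.73 ± 0.11 (adjusted p = 9.9e-06). NUP88, of the cytoplasmic face, went from 107 and 122 to 60.7 and 49.1 CPM, a log2 fold change (± SE) of -1.05 ± 0.15 (adjusted p = 2.1e-06). NUP62, the core of the central channel, went from 204 and 195 to 145 and 136 CPM, a log2 fold change (± SE) of -0.50 ± 0.11 (adjusted p = 0.00047). Groups did not overlap for these 3 genes, whose exons in turn overlap PGAP2 and CHRNA10, RABEP1 and RPAIN, and IL4I1 and ATF5. Of the other members at these places, NUP214 fell by 0.52 on the log2 scale and NUP54 by 0.69, the latter call being lost without siNC replicate A (-0.55, adjusted p = 0.061).

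In the nuclear basket 2 of 3 members fell. NUP153, which anchors the basket, went from 125 and 131 CPM with siNC to 70.8 and 88.4 CPM with siMYC, a log2 fold change (± SE) of -0.70 ± 0.14 (adjusted p = 0.00014). TPR, the basket filament, was called at a log2 fold change of -0.27. That call was lost in 9 of 15 alternative fits, among them RLE, upper-quartile and unscaled library sizes, DESeq2 and limma on TPM. They include the fits without siNC replicate A (-0.25), siMYC replicate A (-0.29) or siMYC replicate B (-0.26). NUP50 (-0.25) did not pass, nor did the membrane nucleoporin NUP210 (-0.18, adjusted p = 0.23) or the messenger RNA exporter NXF1 (-0.14).

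**Figure D2:**
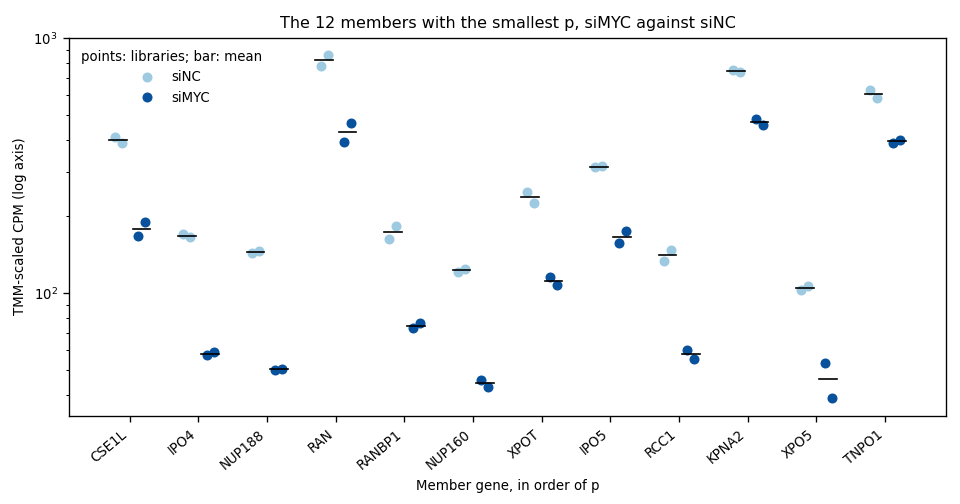
TMM-scaled CPM (log axis) in each siNC and siMYC library for the 12 called members with the smallest p, in order of p, with points for libraries and bars for group means. Every siMYC point lies below both siNC points of its gene, as for IPO4 and NUP188.

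Short windows around the E-box are shown for the 7 members that hold CACGTG, to place the motif beside these falls. RefSeq promoter windows (build GRCh38.p14, from 250 bases before the annotated start up to the start) were found for 44 of the 51 members, all but KPNA4, KPNA5, KPNA7, KPNB1, NUP43, RANBP1 and XPO7. CACGTG, which reads the same on both strands, was in the windows of 7 of these 44 (15.9%) and in 2228 of 35116 promoters of the whole table (6.34%). Each member was counted by the first window of its symbol. The whole table kept every window, not only those of genes tested here. The shares are therefore of unlike sets, and their difference was not tested. The T-box motif GGTGTGA, or TCACACC on the other strand, was in 0 of the 44 member windows and in 2.76% of all promoters. The motif is in capitals in these 30-base windows, each printed on the strand of its gene.
IPO4, chr14:24188828-24188857, minus strand: tgtcagaacctcCACGTGctgtccctcccc
IPO7, chr11:9384502-9384531, plus strand: agctcaggcagcCACGTGggctgcggactg
KPNA3, chr13:49792731-49792760, minus strand: accgcccccggtCACGTGtcgccagcctcc
NUP188, chr9:128947610-128947639, plus strand: ccgcggcaacgtCACGTGacgaaatccccg
NUP188, chr9:128947657-128947686, plus strand: ggggcgagcggtCACGTGggcatggcgtct
NUP50, chr22:45163739-45163768, plus strand: cgttgccggcccCACGTGagccgacgcccc
RAN, chr12:130871952-130871981, plus strand: gcacgcgcgggcCACGTGggcgggcgccgc
TNPO2, chr19:12723939-12723968, minus strand: ggcggctttctgCACGTGtttctcagccca
NUP188 holds the motif at 2 places, 77 and 30 bases before its start, and in TNPO2 and IPO4 it lies 24 and 29 bases before the start. In RAN, IPO7, KPNA3 and NUP50 it lies 102, 138, 66 and 174 bases before. All 7 promoter windows overlap exons annotated by GENCODE, that of NUP188 the exons of its neighbour DOLK and the others exons of the member itself. Of these 7 members, NUP50 was the one not called with siMYC, and the call of TNPO2 was lost in 10 of 15 alternative fits. Of all 49 members tested 36 were called lower. Members without the motif in this window, such as CSE1L, NUP160 and XPOT, fell as well. A match is a run of letters, and binding was not measured here.

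With MGA, in libraries with fewer counts than those of the siRNA experiment, few members were called, and in both directions. Of the 49 members tested, 5 fell (KPNA2, KPNB1, NUP210, RAN and RANBP1), 3 rose (KPNA1, KPNA4 and KPNA5) and 41 did not pass. Among all genes tested, 4.0% fell and 4.96% rose. The median log2 fold change was -0.09 against 0.01 over all genes, and 27 of the 49 were negative. The sign turned under at least 1 alternative for 21 of the 41 members not called and for 0 of the 8 called. The split of 3 rises against 5 falls was the same under RLE scaling. It was 4 against 9 in a fit of only the 4 Empty and MGA libraries. Upper-quartile scaling gave 2 against 9, leaving the MGA gene out of the counts gave 2 against 6, and unscaled library sizes gave 1 against 10 and put the median of all genes at -0.12. The split was 1 to 3 without Empty replicate A, 0 to 1 without Empty replicate B, 1 to 4 without MGA replicate A and 0 to 2 without MGA replicate B. On TPM with limma 0 members passed, and 2 were higher and 6 lower at an unadjusted p under 0.05. Of all genes tested, 3.45% rose and 5.6% fell under upper-quartile scaling, and 4.53% and 4.35% without the MGA gene. The shares were 2.67% and 7.32% with unscaled library sizes and 0.285% and 0.446% on TPM. In the fit of only the 4 Empty and MGA libraries they were 7.48% and 6.81%.

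The members that fell with MGA were the classical import pair, the RAN pair and a membrane nucleoporin. KPNA2 stood at 417 and 395 CPM with Empty and at 272 and 284 CPM with MGA, a log2 fold change (± SE) of -0.55 ± 0.10 (adjusted p = 0.00059), a call kept when any 1 of these 4 libraries was left out. KPNB1 went from 599.7 and 620.0 to 485 and 456 CPM, a log2 fold change (± SE) of -0.37 ± 0.09 (adjusted p = 0.0095). Its call was lost without Empty replicate B (-0.35, adjusted p = 0.091), MGA replicate A (-0.42, adjusted p = 0.057) or MGA replicate B (-0.33, adjusted p = 0.13). The groups did not overlap for either gene. Over all genes tested, both MGA libraries lay below both Empty libraries for 25.0% and above both for 27.6%. Among all genes called lower with MGA the groups did not overlap for 99.8%.

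RAN went from 541 and 511 CPM with Empty to 414 and 375 CPM with MGA, a log2 fold change (± SE) of -0.41 ± 0.10 (adjusted p = 0.011). Without MGA replicate A the RAN call stood, and it was lost without Empty replicate A (-0.37, adjusted p = 0.12), Empty replicate B (-0.46, adjusted p = 0.05) or MGA replicate B (-0.34, adjusted p = 0.16). RANBP1 went from 107 and 99.5 to 72.1 and 70.1 CPM, a log2 fold change (± SE) of -0.53 ± 0.17 (adjusted p = 0.042), and its call was lost without any 1 of these 4 libraries: without Empty replicate A (-0.49, adjusted p = 0.22), Empty replicate B (-0.59, adjusted p = 0.12), MGA replicate A (-0.55, adjusted p = 0.19) or MGA replicate B (-0.52, adjusted p = 0.18). Of the rest of the RAN cycle, RCC1 stood at 85.7 and 89.9 CPM with Empty and 73.9 and 47.9 CPM with MGA and did not pass (log2 fold change -0.50, adjusted p = 0.11). It passed without MGA replicate A (-0.87, adjusted p = 0.048), the higher of its MGA libraries. RANGAP1 had a log2 fold change of 0.29 (adjusted p = 0.22).

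NUP210 had the most negative log2 fold change with MGA, from 139 and 179.9 CPM with Empty to 92.2 and 80.6 CPM with MGA, a log2 fold change (± SE) of -0.87 ± 0.16 (adjusted p = 0.00078). Both MGA libraries lay below both Empty libraries, and the call was lost without Empty replicate B (-0.68, adjusted p = 0.059), the higher of the Empty libraries. No other nucleoporin was called with MGA. NUP155 (-0.46, adjusted p = 0.092) and NUP205 (-0.45, adjusted p = 0.069) had the most negative values in the inner ring. NUP188 (0.15) of that ring and NUP160 (0.17) of the outer ring had values above 0, the latter with a sign that turned without MGA replicate B. Both NUP155 and NUP205, with CSE1L (-0.38, adjusted p = 0.054) and XPO7 (-0.46, adjusted p = 0.097), were called lower under upper-quartile scaling, with unscaled library sizes and in a fit of only these 4 libraries.

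The 3 members called higher with MGA were all importin alphas, while 4.96% of all genes tested were called higher. Outside this family IPO13 (0.74, adjusted p = 0.12), NUP54 (0.66, adjusted p = 0.15) and NXF1 (0.44, adjusted p = 0.09) did not pass. NXF1 was called higher in a fit of only the 4 Empty and MGA libraries. KPNA4 went from 204 and 185 CPM with Empty to 262 and 293 CPM with MGA, a log2 fold change (± SE) of 0.51 ± 0.12 (adjusted p = 0.0086). This call was lost without Empty replicate B (0.43, adjusted p = 0.14) or MGA replicate B (0.43, adjusted p = 0.12). KPNA1 went from 120.4 and 109 to 157 and 160.1 CPM, a log2 fold change (± SE) of 0.46 ± 0.14 (adjusted p = 0.041). KPNA5 had only 4 and 5 reads in the Empty libraries against 22 and 14 in the MGA libraries, a log2 fold change (± SE) of 1.78 ± 0.52 (adjusted p = 0.028). The calls of KPNA1 and KPNA5 were each lost without any 1 of the 4 libraries. The adjusted p for KPNA1 was 0.12 without Empty replicate A, 0.28 without Empty replicate B and 0.17 without either MGA library, at log2 fold changes of 0.53, 0.39, 0.48 (MGA replicate A) and 0.45 (MGA replicate B). That for KPNA5 was 0.19, 0.13, 0.21 and 0.072 without Empty replicate A, Empty replicate B, MGA replicate A and MGA replicate B, at log2 fold changes of 1.60, 1.96, 1.61 and 1.90. KPNA3 (-0.26) and KPNA6 (0.19) did not pass, and the sign of each turned without MGA replicate A.

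**Figure D3:**
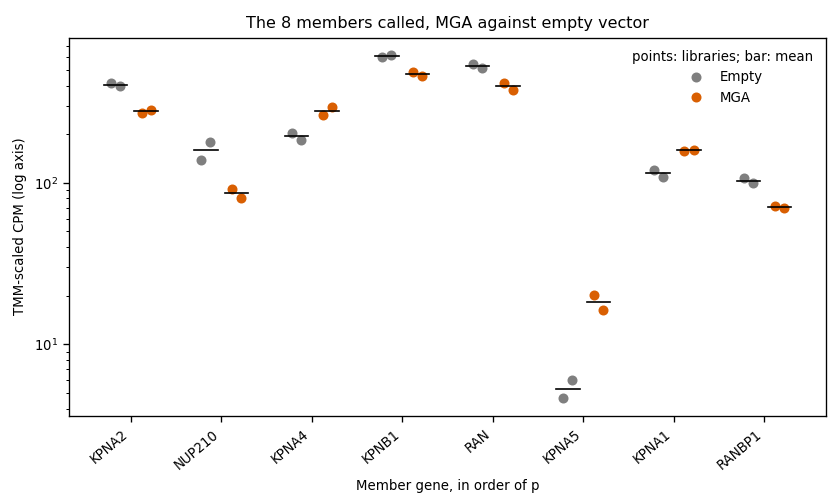
TMM-scaled CPM (log axis) in each Empty and MGA library for the 8 called members in order of p, with points for libraries and bars for group means. KPNA2, NUP210, KPNB1, RAN and RANBP1 have both MGA points below both Empty points, and KPNA4, KPNA5 and KPNA1 have them above.

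The makeup of the importin alpha family was also described per length, as shares, which move when any gene of the family moves. In TPM itself the groups overlapped for KPNA4, at 49.3 and 37.6 with Empty and 65.0 and 48.7 with MGA. For KPNA1, KPNA2 and KPNA5 they did not overlap. Of the summed TPM of the 7 genes, KPNA2 took 61.2% and 65.0% with Empty and 47.9% and 49.8% with MGA. KPNA1 took 15.4% and 13.0% with Empty and 19.4% and 22.5% with MGA, and KPNA4 took 9.78% and 8.59% with Empty and 14.8% and 11.4% with MGA. The summed TPM of the family was 504 and 437 with Empty and 439 and 427 with MGA. In the siRNA experiment KPNA2 took 75.8% and 77.5% of the family with siNC and 71.9% and 74.2% with siMYC, and the summed level was 715 and 671 TPM with siNC and 548.7 and 487 TPM with siMYC. These shares are a description and were not tested.

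**Figure D4:**
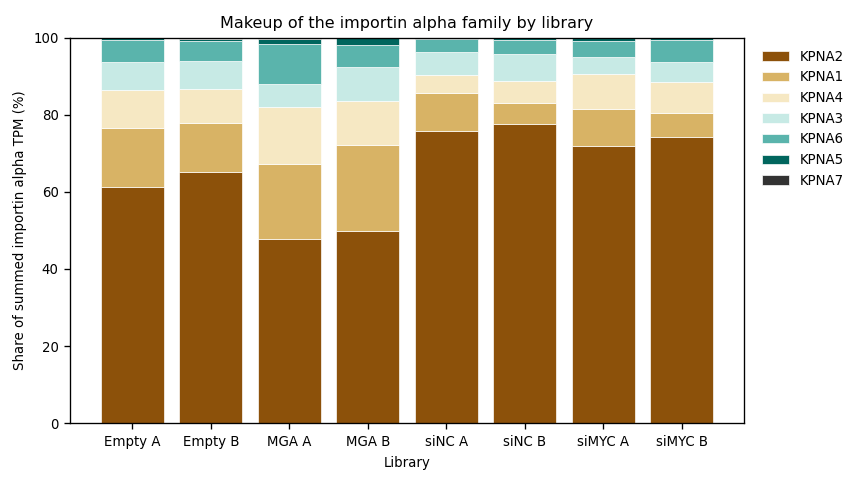
Share of the summed importin alpha TPM (percent, stacked bars) taken by each of the 7 KPNA genes in each of the 8 libraries. KPNA2 takes the largest share in every library, from 47.9% in MGA A to 77.5% in siNC B.

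The responses were then compared by their difference (MGA response minus siMYC response, an interaction contrast in the same fit), which also holds any difference between the experiments themselves. For 24 of the 49 members the MGA response was higher and for 1 member, NUP210, it was lower. Over all genes the difference was called higher for 10.3% and lower for 8.22%. The number called higher was 15 without Empty replicate B and 16 without MGA replicate A, 14 with library sizes alone, 13 with DESeq2 and 1 with limma on TPM. Over all genes tested, the share called higher was 6.36% with library sizes alone, 3.82% with DESeq2 and 1.35% with limma on TPM. Of the 36 members that fell with siMYC, 22 had responses that differed and 14 did not pass the main test of the difference. The siMYC response that chose these 36 enters the difference, and among all 2240 genes that fell with siMYC the responses differed for 42.1%.

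The 12 members whose responses lay furthest apart by p were the scaffold nucleoporins NUP188 and NUP160, NUP98, the basket nucleoporin NUP153, 7 cargo receptors and RANGAP1. They fell with siMYC and did not pass with MGA. NUP188 stood at 109 and 126 CPM with Empty and 131 and 129 CPM with MGA, and the difference of its responses was 1.68 (SE 0.20, adjusted p = 6.5e-07). NUP160 stood at 103 and 113 CPM with Empty and 104 and 141 CPM with MGA, with a difference of 1.64 (SE 0.22, adjusted p = 4.7e-06). IPO4 stood at 127 and 115 CPM with Empty and 94.9 and 119 CPM with MGA, with a difference of 1.34 (SE 0.20, adjusted p = 2.6e-05). The Empty and MGA libraries overlapped for IPO4 and NUP160, while those of NUP188 did not and lay slightly higher with MGA. RANGAP1, with 124 and 162 CPM with Empty and 182 and 166 CPM with MGA, differed by 1.07. XPOT differed by 0.95, TNPO1 by 0.72, IPO5 by 0.81, NUP98 by 0.86, XPO5 by 1.28, CSE1L by 0.78, NUP153 by 0.98 and XPO6 by 0.86. The calls of all these 12 members stood when any 1 of the 8 libraries was left out.

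RAN, RANBP1, KPNA2 and KPNB1 were the 4 members that fell in both experiments, against 1.91% of all genes tested. For KPNA2 the responses differed by 0.11 (95% interval -0.16 to 0.38) and for KPNB1 by 0.11 (95% interval -0.15 to 0.36), and neither difference passed, with a sign that turned under upper-quartile scaling and with unscaled library sizes. RAN fell less with MGA than with siMYC, with a difference of 0.53 (adjusted p = 0.0077), a call lost without MGA replicate A (0.46, adjusted p = 0.081). The difference for RANBP1 was 0.69 (adjusted p = 0.021), and its call was lost without Empty replicate B (0.65, adjusted p = 0.079), MGA replicate A (0.68, adjusted p = 0.1), MGA replicate B (0.71, adjusted p = 0.058), siNC replicate B (0.61, adjusted p = 0.064) or siMYC replicate A (0.66, adjusted p = 0.054). NUP210 went the other way, with a lower response to MGA (-0.69, adjusted p = 0.018), lost without Empty replicate B (-0.48, adjusted p = 0.18), MGA replicate B (-0.60, adjusted p = 0.099) or siNC replicate A (-0.58, adjusted p = 0.056). Members called in opposite directions in the 2 experiments numbered 0, and 9 were called in neither: IPO13, IPO9, KPNA6, NUP133, NUP37, NUP50, NXF1, TNPO3 and XPO7. Across the 49 members the responses had a Pearson correlation of 0.44 and a Spearman correlation of 0.313, across 11218 genes 0.113 and 0.163. Genes are not independent replicates, so no p is given.

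**Figure D5:**
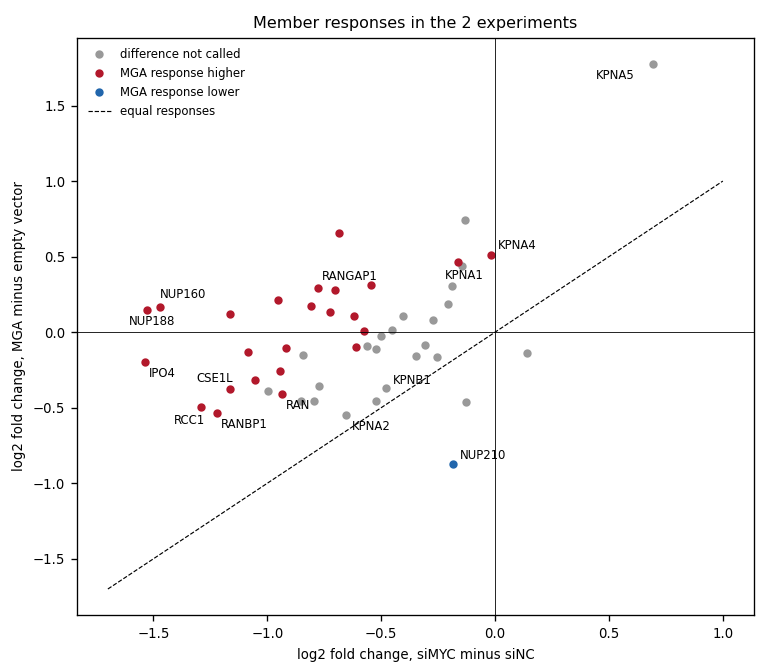
Log2 fold change with MGA (vertical axis) against log2 fold change with siMYC (horizontal axis) for the 49 tested members, with colour for the test of the difference and a dashed line of equal responses. Most points lie above the line, 24 of them called, and NUP210 is the one member called below it.

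Other genes of the pore and of transport, were examined on lists outside the 51, to be read against the 20.0% of all genes that fell and the 19.0% that rose with siMYC. Of 12 other pore genes tested, 8 fell with siMYC and 0 rose (median log2 fold change -0.55), among them NDC1 (-1.06), a membrane anchor of the pore, AHCTF1 (-0.71), which seeds pores on chromatin, and the near-identical POM121 (-0.55) and POM121C (-0.54), which can share reads. Of 18 other messenger RNA export genes 8 fell and 0 rose (median -0.32), among them, with the smallest p, ALYREF (-1.05), an adaptor of NXF1, with POLDIP3 (-0.84), THOC3 (-0.86) and NXT1 (-0.90), the partner of NXF1. Of 7 other transport factors 2 fell: NMD3 (-0.85), the export adaptor of the large ribosomal subunit, and PHAX (-0.44), the export adaptor of small nuclear RNA. The PHAX call was lost without siNC replicate B (-0.41, adjusted p = 0.12) and without siMYC replicate A (-0.25, adjusted p = 0.31). Over the 3 lists edgeR called 18 of 37 genes lower with siMYC, DESeq2 called 6 and limma on TPM 1. The shares of all genes called lower with siMYC were 8.97% with DESeq2 and 4.78% with limma on TPM. With MGA 0 of the 37 genes were called by edgeR, DESeq2 or limma, and 4 were higher and 3 lower at an unadjusted p under 0.05 in edgeR.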

How the data were processed

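RNA-seq gene tables of 8 A549 libraries were used. Per the submitters' processing notes the build was hg19 and the tools STAR and RSEM; versions, annotation and strand setting: not given in the sources used here. Per the file headers, the authors deposited an expected count (an estimate that splits shared reads), a TPM and an FPKM per gene; FPKM was not used. The members, gene lists, tests and alternatives were chosen with earlier results of these data known.

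Expected counts were rounded and filtered by filterByExpr with a minimum count of 10 and a total of 15, leaving 11218 genes. They were scaled by TMM and fitted in edgeR 4.0.16 (R 4.3.3) with 4 groups, 8 libraries and 4 residual degrees of freedom. Contrasts were tested by the quasi-likelihood F test, two-sided, with Benjamini-Hochberg adjustment over all genes and a call under 0.05. The SE is the log2 fold change divided by the square root of F, and 95% intervals use the fit's degrees of freedom. With 2 against 2 libraries the smallest exact permutation p is 0.333, so none was run. Values in every library are given for the 12 called members with the smallest p with siMYC and all 8 called with MGA. They are also given for the first of each role in these comparisons. Up to 4 called genes are named per other list and comparison, and LMNB1 is also given with siMYC. Replicates differed beyond sampling noise in every group (chi-square per degree of freedom 1.13 to 1.86). Exon overlaps come from GENCODE 29 on GRCh38 by symbol. Counts limit precision: intervals and fits cover the libraries sequenced. Alternatives used limma 3.58.1 on log2(TPM + 1), DESeq2 1.42.0, other scalings and filters, fewer libraries and a replicate block.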

Additional observations from a re-analysis of the deposited data

How the results depend on the processing

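Of the calls in the text, the 36 falls with siMYC, the 8 changes with MGA and the 25 differences between responses kept their direction under every alternative run for them. The 36 falls numbered 14 with limma on TPM and 28 to 36 under the other alternatives with all libraries, and 33 to 35 when 1 library was left out, and 14 of them were called in every alternative. The count of members higher with siMYC was 0 throughout, also when 1 library was left out. The 3 rises with MGA were 1 for unscaled library sizes, 1 for DESeq2 (which gave KPNA5 no adjusted p), 0 for TPM and 0 to 1 when 1 library was left out. The 5 falls with MGA were 9 under upper-quartile scaling, 10 for unscaled library sizes, 9 in a fit of only the 4 libraries, 0 on TPM and 1 to 4 when 1 library was left out. The 24 higher responses to MGA were 14 for unscaled library sizes, 13 for DESeq2, 1 for TPM and 15 to 23 when 1 library was left out. The 1 lower response was 0 with DESeq2, 0 on TPM and 0 to 1 when 1 library was left out. Over all genes tested, 20.0% fell with siMYC in the main fit, 8.97% with DESeq2 and 4.78% on TPM. With MGA, 4.0% fell in the main fit and 5.6% under upper-quartile scaling. Unscaled library sizes gave 7.32% and a fit of only the 4 libraries gave 6.81%. In that last fit 4 members were called higher with MGA, against 7.48% of all genes. The difference was called higher for 10.3% in the main fit, 6.36% for unscaled library sizes, 3.82% for DESeq2 and 1.35% for TPM. The cause of the moves in these counts was not tested. A left-out library leaves a group with 1 library, which is assumed to vary like the others.

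The A minus B differences of the groups correlated over genes at -0.0212 for Empty and MGA and at 0.133 for siNC and siMYC. Whether the letters pair the libraries is not settled by these values. With the letter as a replicate block, 3 members were higher and 6 lower with MGA, 36 lower with siMYC, and 27 differences were higher and 1 lower.

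Signs turned for 21 of 41 members not called with MGA, 5 of 13 with siMYC and 4 of 24 for the difference, and for 0 of the called members. Of those with their own values in the text, with MGA these included NUP205 on TPM (0.043) and, when 1 library was left out, KPNA3 (-0.55 to 0.025), KPNA6 (-0.011 to 0.33) and NUP160 (-0.052 to 0.39). With siMYC they included IPO9 (-0.052) and XPO7 (0.037) on TPM, and KPNA4 with RLE (0.028), upper-quartile (0.026) or unscaled library sizes (0.026), without the MGA gene (0.051), with DESeq2 (0.024), on TPM (0.32) and when 1 library was left out (-0.16 to 0.10). The differences of KPNA2 and KPNB1 were -0.010 and -0.013 under upper-quartile scaling and -0.063 and -0.067 with unscaled library sizes. Summing processed pseudogenes into their parent genes, chosen after seeing the data, left every call of a member as it was. Low counts limit what can be called for scarce members such as KPNA5.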

Other observations

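The nuclear lamina and envelope, to which pores are anchored, held called genes in both directions. With siMYC 4 of 12 listed genes fell and 4 rose, against 20.0% and 19.0% of all genes tested. With DESeq2 2 fell and 2 rose, against 8.97% and 8.6% of all genes. SUN2, an inner membrane protein of the bridge to the cytoskeleton, rose (log2 fold change 1.13), and BANF1, which ties chromatin to the envelope, rose as well (0.96). TMPO, which encodes the lamina-associated LAP proteins, had a log2 fold change of -0.76 and the lamin gene LMNB2 one of -0.61. The lamin gene LMNB1 was called lower as well (-0.53, adjusted p = 0.00078). The difference between its MGA and siMYC responses did not pass (-0.47, adjusted p = 0.17). With MGA 2 of the 12 rose and 2 fell, against 4.96% and 4.0% of all genes: SYNE1, an outer membrane nesprin, by 1.27, and LMNA, the A-type lamin gene, by 0.59, while LMNB1, a B-type lamin gene, fell from 90.2 to 44.8 CPM on average and TMPO had a log2 fold change of -0.63. The TMPO call with MGA was lost without Empty replicate A (-0.53, adjusted p = 0.057) and without MGA replicate A (-0.53, adjusted p = 0.075). On TPM with limma 1 of the 12, LMNA, was called higher with MGA and 0 lower, against 0.285% and 0.446% of all genes. The calls of SYNE1, LMNB1 and TMPO with MGA were lost there. DESeq2 called 2 higher and 2 lower with MGA, against 1.45% and 1.74%. Adjusted p-values are from edgeR.

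Of 8 genes of the SUMO pathway, whose enzymes act at the pore, 2 fell with siMYC, against 20.0% of all genes tested. DESeq2 called 1 of the 8 lower, against 8.97% of all genes, and limma on TPM 0, against 4.78%. With MGA 0 changed, also 0 at an unadjusted p under 0.05 in edgeR and 0 by DESeq2 or limma. The 2 were SAE1 (log2 fold change -0.38) and UBA2 (-0.46), the subunits of the SUMO activating enzyme. The SAE1 call was lost without siNC replicate A (-0.29, adjusted p = 0.066) and without siMYC replicate A (-0.27, adjusted p = 0.093).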
